A study of Mus musculus with 6 samples.

Results

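The respiratory chain genes described here are 106 of the 32285 genes in the count matrices. They were taken by symbol, as the subunits of complexes I to V of oxidative phosphorylation that carry the prefixes Nduf, Sdh, Uqcr, Cox4 to Cox8 and Atp5, without pseudogene names. The nuclear arm has 93 genes, which are 36 subunits and 8 assembly factors of complex I, 4 genes of complex II, 8 of complex III, 18 of complex IV together with the 2 genes of the NDUFA4 family, and 17 of complex V. The mitochondrial arm is the 13 protein genes of mitochondrial DNA, of which 7 encode subunits of complex I, 1 of complex III, 3 of complex IV and 2 of complex V. Complex II has no mitochondrial gene.

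The inner mitochondrial membrane carries electrons from NADH through complex I, and from succinate through complex II, to complex III and then to complex IV, which passes them to oxygen. Complexes I, III and IV pump protons, and complex V, the ATP synthase, uses their return to make ATP. Every complex except II is built from products of both genomes, and several complex IV and V subunits exist in alternative forms from separate genes that are known to differ between tissues.

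RNA was counted in single cells from brain cortex and subventricular zone of adult mice aged 8 to 12 weeks, in 6 libraries, 2 for each of 3 genotypes. Control mice were Cx43flox/flox, in which loxP sites flank part of Gja1. Its product, connexin 43, forms gap junction channels. Mice of the groups labelled Cx43GlastiKO and Cx43ECiKO, here GlastiKO and ECiKO, carry a deletion named for Glast, a glutamate transporter of astroglia and neural stem cells, and for endothelial cells. The sort kept CD45-negative cells with either CD31 or Glast, and the labels call the libraries of a group biological replicates without giving animals, inducing agent or the Cre driver beyond these names.

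The 7433 cell barcodes held 1735247 to 14859187 UMIs (unique molecules) per library. Filters for at least 300 genes and at most 20% mitochondrial UMIs kept 6323 barcodes, and marker genes placed 5980 of them in 6 classes. These were 1714 endothelial-like, 967 astroglial-like, 3033 oligodendrocyte-like, 124 pericyte-like, 73 choroid plexus-like and 69 neuroblast- and progenitor-like cells, and the shorter names below stand for these. Every marker of a class was detected in each of its sums, and markers of the 5 other classes reached at most 1946 CPM (UMIs of a gene or list scaled to a fixed total of the class in that library) in any of them, against at least 6845 CPM for a class's own markers. The libraries numbered 1 were mostly endothelial (730, 454 and 398 cells in control, GlastiKO and ECiKO), and those numbered 2 held the glia with only 46, 65 and 21 endothelial cells. Oligodendrocytes, pericytes and choroid plexus cells are not in the labels' sort description. ECiKO 2 was shallow, with a median of 782 UMIs per barcode, and shared 1 barcode with GlastiKO 2. Gja1 did not follow the labels: endothelial cells had 93.6 and 109 CPM in control, 143 and 132 in the libraries labelled GlastiKO and 235 and 209 in those labelled ECiKO, and astroglia 2553, 2530 and 2616 CPM. Whether the counted 3′ end lies in the deleted part is not given in the sources used here, so genotype groups below are libraries so labelled.

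The classes differed in both arms, and not in the same order. The nuclear arm was 1.09% ± 0.171 of all UMIs in endothelial cells (SD, n = 6 libraries), 1.25% ± 0.0404 in astroglia (n = 3), 1.87% ± 0.109 in oligodendrocytes (n = 3) and 2.51% ± 0.0736 in pericytes (n = 3). In GlastiKO 2 and ECiKO 2, the only libraries with at least 20 cells of these classes, it was 2.61% and 2.84% in neuroblasts and 8.53% and 7.51% in choroid plexus cells. The 7 choroid plexus cells of control 2, with 176417 UMIs, had a lower nuclear share of 5.39%. Among sums of at least 20 cells, endothelial libraries (0.924% to 1.37%) overlapped with astroglial ones (1.20% to 1.28%). Oligodendrocytes (1.77% to 1.99%), pericytes (2.44% to 2.58%), neuroblasts and choroid plexus cells each formed a range of their own there. The 6 pericytes of ECiKO 1, under this limit, reached 2.84%, as high as the neuroblast sums. Sums give deep cells more weight. The median share over single cells was 0.571% to 0.893% in the endothelial libraries and 0.724%, 0.718% and 1.23% in the astroglial ones. It was 1.77% to 2.01% in oligodendrocytes and 2.42% to 2.73% in pericytes. In choroid plexus cells 238756 to 250790 CPM came from 4 marker genes alone, among them Ttr, so every other share there is of what these leave.

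The mitochondrial arm was 7.40% ± 0.235 of UMIs in astroglia (7.14%, 7.46% and 7.59%), above every library of the other classes. Oligodendrocytes had 4.43% ± 0.697, pericytes 4.41% ± 0.934 and endothelial cells 3.32% ± 0.545, and these ranges overlapped. Choroid plexus cells had 3.11% and 2.27% and neuroblasts 2.52% and 2.32% in GlastiKO 2 and ECiKO 2. The 7 choroid plexus cells of control 2 had 4.61%. Mitochondrial UMIs per nuclear UMI were therefore 5.93 in astroglia, 3.15 in endothelial cells (1.87 to 4.17 over libraries), 2.38 in oligodendrocytes and 1.75 in pericytes. They were 0.890 in neuroblasts and 0.334 in choroid plexus cells, with 0.855 in the 7 of control 2. The endothelial mean includes the libraries numbered 1, which give no oligodendrocyte sum. In control 2, GlastiKO 2 and ECiKO 2 the ratio was 2.50, 1.87 and 2.89 in endothelial cells. Oligodendrocytes had 2.33, 1.98 and 2.82 there, so these classes overlapped. The limit of 20% uses these same mitochondrial UMIs. Without it the astroglial mean was 8.5% and the pericyte mean 5.42%, and with a limit of 10% the astroglial mean was 5.49%.

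**Figure D1:**
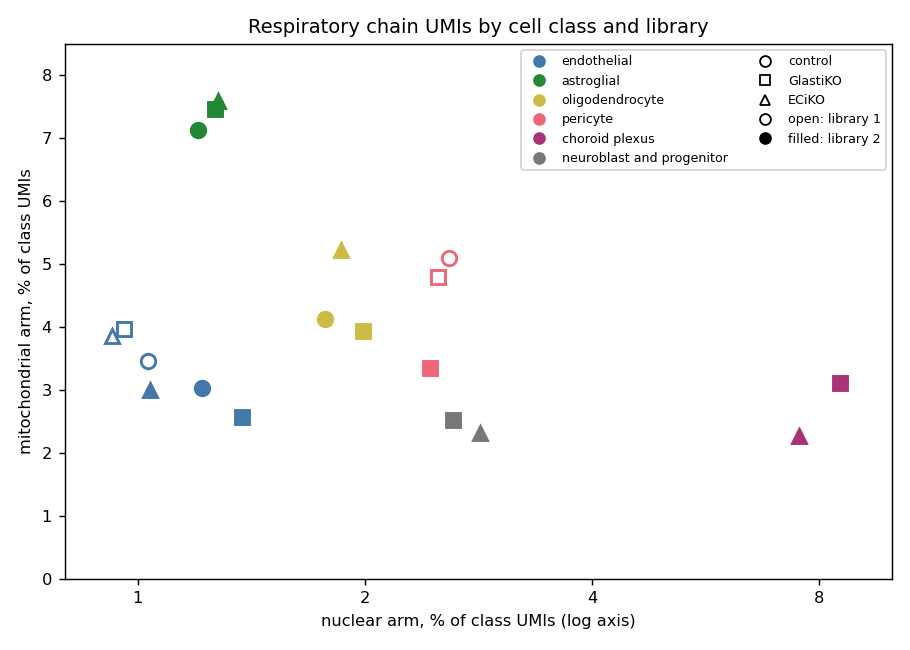
Share of class UMIs from the nuclear arm (x, %, log axis) and from the mitochondrial arm (y, %), 1 point for each class and library with at least 20 cells, coloured by class, with the group as shape and the library number as fill. Astroglia lie highest, between 7.14% and 7.59% mitochondrial, and choroid plexus cells farthest right, at 7.51% and 8.53% nuclear.

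Gene by gene, 90 of the 93 nuclear members reached 20 CPM in the mean of at least 1 class. The 3 that did not were Cox7b2, Cox6a2 and Cox8c, known from testis or striated muscle, and Cox8c had no UMI. Choroid plexus cells had the highest mean of the 6 classes for 82 of the 90, and endothelial cells the lowest for 55 and astroglia for 24. The choroid plexus means rest on 23 and 43 cells of GlastiKO 2 and ECiKO 2, and the endothelial means include the libraries numbered 1. Cox8b was among the 90 only through choroid plexus cells. For the mitochondrial arm, astroglia had the highest mean for 12 of 13 genes and pericytes for the other, mt-Nd3, while neuroblasts had the lowest for 8. How often each class ranks highest or lowest over all genes was not counted.

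Class differences were tested within libraries on summed UMIs with edgeR's quasi-likelihood test, with library as a block and Benjamini-Hochberg adjustment over all genes tested. Astroglia, oligodendrocytes and endothelial cells were compared in the libraries numbered 2, where the endothelial sums are small, and called means an adjusted p under 0.05. Against endothelial cells, 74 of 87 tested nuclear members were higher in oligodendrocytes and none lower, with a median log2 fold change of 1.22 against 0.51 over all 11566 genes (29.2% of all genes were called higher and 15.7% lower). In astroglia 22 of 87 were higher and 4 lower than in endothelial cells (23.3% and 15.5% of all genes), with a median of 0.37 against 0.30, which is a share of higher genes near that of all genes. Between the glia, 69 of 87 nuclear members were lower in astroglia than in oligodendrocytes and 5 higher (36.3% and 34.5% of all genes), with a median of -0.94 against -0.03. All 13 mitochondrial genes were higher than in endothelial cells in astroglia, with a median of 1.83, and in oligodendrocytes, with a median of 1.29. Between the glia 6 of 13 were higher and none lower in astroglia, with a median of 0.45.

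Counted by libraries alone, 52 nuclear members lay above endothelial cells without overlap in oligodendrocytes and 5 below (28.6% and 25.1% of all genes), and 21 above and 11 below in astroglia (26.9% and 21.9%). Between the glia 7 lay above and 57 below in astroglia (44.3% and 30.3%). Of the 13 mitochondrial genes, 12 lay above endothelial cells without overlap in astroglia (26.9% of all genes) and 7 in oligodendrocytes (28.6%). Against oligodendrocytes 12 of the 13 lay above in astroglia (44.3%). CPM and the TMM-scaled fold change can differ in sign: Ndufa4 had 343 ± 18.3 CPM in oligodendrocytes and 382 ± 41.6 in endothelial cells, overlapping, with a log2 fold change of 0.52 (adjusted p 0.0408) that was lost or turned in 7 alternatives.

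Scaling moved these counts. With library totals in place of TMM factors the median of all genes went from 0.30 to -0.00 for astroglia against endothelial cells, from 0.51 to -0.16 for oligodendrocytes against endothelial cells, and from -0.03 to 0.32 between the glia. Relative to the median of all genes the nuclear median was 0.72, 0.88 and 0.70 in oligodendrocytes over endothelial cells with TMM, DESeq2's size factors and library totals, and between the glia it was -0.90, -0.90 and -0.89. Astroglia over endothelial cells gave 0.07, 0.11 and 0.05 for the nuclear arm and 1.53, 1.53 and 1.44 for the mitochondrial arm. By call, library totals left 38 higher and 2 lower nuclear members and 8 of 13 mitochondrial genes in oligodendrocytes against endothelial cells, and 12 higher and 10 lower nuclear members in astroglia. The astroglial count also rested on single libraries, with 13 higher without control 2 and 11 higher and 1 lower without GlastiKO 2, and between the glia the 5 higher became 3 without either of these. Over all calls, the share higher was 65.0% with TMM, 52.3% with DESeq2 and 40.2% with library totals for oligodendrocytes against endothelial cells. It was 59.97%, 59.0% and 47.5% for astroglia against endothelial cells, and 48.7%, 59.5% and 60.7% between the glia.

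**Figure D2:**
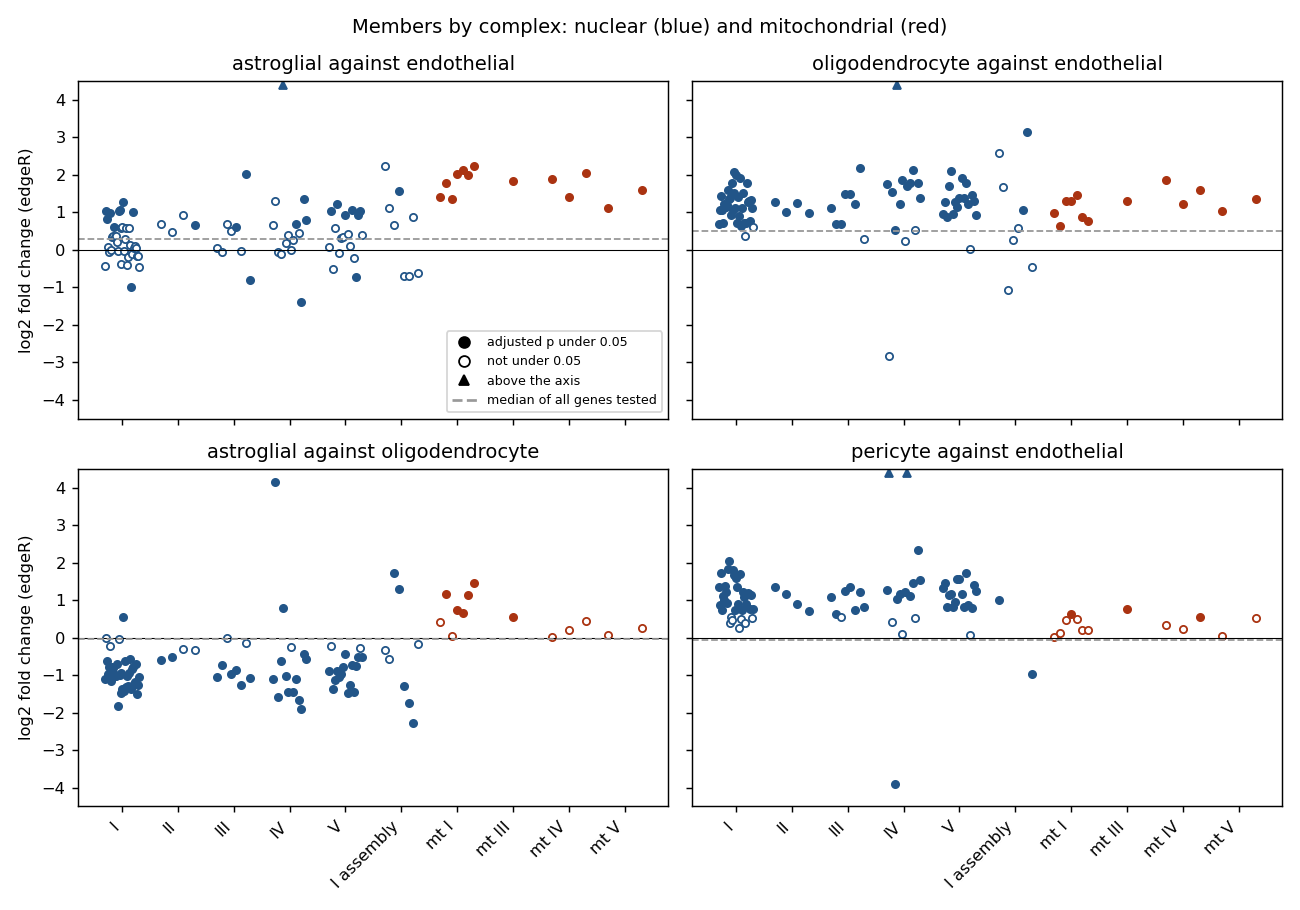
Log2 fold change from edgeR (y) of each tested member by complex (x), nuclear in blue and mitochondrial (mt) in red, in 4 class comparisons. Filled points have an adjusted p under 0.05, triangles lie above the axis, and the dashed line is the median of all genes, 0.30, 0.51, -0.03 and -0.06. Nuclear members sit mostly above it in oligodendrocytes and pericytes and below it in astroglia against oligodendrocytes.

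Complex I, the NADH dehydrogenase, had 34 of 36 nuclear subunits higher in oligodendrocytes than in endothelial cells, and 32 of 36 lower in astroglia than in oligodendrocytes. Ndufs1, an iron-sulfur core subunit, had 84.3, 77.6 and 88.7 CPM in astroglia, 67.5, 63.9 and 64.4 in oligodendrocytes and 75.3, 37.8 and 26.2 in endothelial cells of control 2, GlastiKO 2 and ECiKO 2. The astroglial libraries lay above all others, and the endothelial libraries spread on both sides of the oligodendrocyte ones. Ndufs1 passed against endothelial cells in astroglia (log2 fold change 1.04, SE 0.35, adjusted p 0.0165) and in oligodendrocytes (1.07, SE 0.34, adjusted p 0.00966), and neither call held with library totals or without GlastiKO 2, nor the second with DESeq2. Against oligodendrocytes it did not pass in astroglia, and with library totals it was higher (0.34, adjusted p 0.0494). Ndufv1, the flavoprotein that takes the electrons of NADH, had 75.1 ± 6.15 CPM in astroglia and 95.2 ± 4.76 in oligodendrocytes (SD, n = 3), a log2 fold change of -0.71 (adjusted p 0.000178) that DESeq2 did not call. Ndufa12, a late-joining accessory subunit, was the exception among the 36, with 212 ± 9.03 CPM in astroglia, 113 ± 4.51 in oligodendrocytes and 103 ± 35.1 in endothelial cells. It was higher in astroglia in both comparisons (log2 fold change 1.27, adjusted p 0.000117, and 0.55, adjusted p 0.00153).

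Other complex I subunits followed the counts above. Ndufab1, the mitochondrial acyl carrier protein, was higher than in endothelial cells in astroglia (1.07, lost with library totals and without GlastiKO 2), oligodendrocytes (2.08) and pericytes (1.80, all log2 fold changes). Ndufa3 had 102 ± 20.8 CPM in astroglia and 281 ± 43.5 in oligodendrocytes (log2 fold change -1.82, adjusted p 1.59e-12), and Ndufb8 112 ± 12.4 and 244 ± 8.27 (-1.505). Ndufc2 was higher in astroglia than in endothelial cells (1.03) and Ndufs7 higher in oligodendrocytes (1.99).

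The 8 Ndufaf genes, which help to assemble complex I and are not part of it, did not move together. Ndufaf4 had 89.8, 87.9 and 109 CPM in astroglia, 29.4, 27.8 and 32.3 in oligodendrocytes and 33.5, 37.8 and 52.3 in endothelial cells, so the astroglial libraries stood apart. Its endothelial values rest on 4, 8 and 2 UMIs, and 3 UMIs would be 78.5 CPM in ECiKO 2. Ndufaf4 was higher in astroglia than in endothelial cells (log2 fold change 1.57, SE 0.36, adjusted p 0.000436) and than in oligodendrocytes (1.31, SE 0.16, adjusted p 1.61e-09). Ndufaf2 had 104 ± 15.8 CPM in oligodendrocytes, 26.3 ± 2.97 in astroglia and 19.4 ± 9.62 in endothelial cells. The endothelial value rests on 1, 5 and 1 UMIs, so no fold is given against it, and the gene was called higher in oligodendrocytes (adjusted p 2.16e-08). It was lower in astroglia than in oligodendrocytes (log2 fold change -2.27, adjusted p 2.82e-14). Ndufaf8 was lower in astroglia too, with 16.7 ± 3.07 against 45.5 ± 2.07 CPM (-1.76).

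Complex II, succinate dehydrogenase, is shared with the tricarboxylic acid cycle. All 4 of its genes were higher in oligodendrocytes and in pericytes than in endothelial cells, and 1 of 4, the flavoprotein subunit Sdha, in astroglia. Sdha had 123, 148 and 157 CPM in astroglia and 66.9, 132 and 131 in endothelial cells, which overlap, and its call (log2 fold change 0.67, adjusted p 0.0481) was lost in 6 alternatives. In oligodendrocytes it was 0.99, lost with library totals and without control 2. Sdhb, the iron-sulfur subunit, had 66.9 and 99.2 CPM in endothelial cells of control 2 and GlastiKO 2 and no UMI in ECiKO 2, where 3 UMIs would be 78.5 CPM, against 97.4 ± 4.44 in oligodendrocytes (log2 fold change 1.01, adjusted p 0.0068, lost with DESeq2 and with library totals).

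Complex III, the cytochrome bc1 complex, had 7 of 8 nuclear genes higher in oligodendrocytes than in endothelial cells and 6 of 8 lower in astroglia than in oligodendrocytes. Uqcrfs1, the Rieske iron-sulfur protein, had 131, 110 and 146 CPM in astroglia and 105, 112 and 111 in oligodendrocytes. Endothelial cells had 33.5, 47.2 and 0 CPM in the libraries numbered 2 (4, 10 and 0 UMIs) and 51.8, 48.2 and 51.4 in those numbered 1. Uqcrfs1 was higher than in endothelial cells in both glia (2.03, adjusted p 1.95e-05, and 2.18, adjusted p 2.37e-06) and did not pass between them. Uqcrb went down instead, with 118 ± 9.23 CPM in astroglia and 230 ± 87.2 in endothelial cells (-0.80, adjusted p 0.00771), a call lost with DESeq2 (adjusted p 0.0638) and without GlastiKO 2. Uqcrc1, a core subunit, had 80.3 ± 9.33 CPM in oligodendrocytes and 80.8 ± 2.62 in endothelial cells, and its call under TMM scaling (0.69, adjusted p 0.0483) was lost in 7 alternatives.

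Complex IV is cytochrome c oxidase. Of its 14 tested nuclear genes, 11 were higher in oligodendrocytes than in endothelial cells. Between the glia 11 were lower and 2 higher in astroglia than in oligodendrocytes. Cox4i1, the ubiquitous form of subunit 4, had 924, 988 and 1032 CPM in oligodendrocytes, 459, 472 and 438 in astroglia and 477, 416 and 445 in endothelial cells. The oligodendrocyte libraries stood apart from both (log2 fold change 1.85, adjusted p 2.06e-09, against endothelial cells, and -1.46, adjusted p 5.9e-09, for astroglia against oligodendrocytes). Cox6c, an accessory subunit, was likewise highest in oligodendrocytes of the 3 classes, with 718 ± 84.4 CPM against 290 ± 32.4 in astroglia and 233 ± 102 in endothelial cells (2.13 and -1.67). Cox8a, the ubiquitous form of subunit 8, was higher than in endothelial cells in astroglia (1.34, adjusted p 1.03e-05) and in oligodendrocytes (1.77). Cox5a did not pass in any of these 3 comparisons.

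Cox7a2l, a relative of subunit 7a known for joining complexes III and IV, was lower in astroglia than in both other classes. It had 56.6, 58.3 and 60.1 CPM in astroglia, 167, 167 and 181 in oligodendrocytes and 142, 203 and 262 in endothelial cells. The astroglial libraries lay below all others (log2 fold change -1.38, SE 0.26, adjusted p 1.96e-05, and -1.90, SE 0.17, adjusted p 1.92e-13). Of the UMIs of Cox7a1, Cox7a2 and Cox7a2l together, Cox7a2l gave 23.4% to 25.9% in astroglia, 29.3% to 33.4% in oligodendrocytes and 34.5% to 66.7% over the 6 endothelial libraries. The 66.7% is that of ECiKO 2, on only 10 UMIs of Cox7a2l and 5 of Cox7a2. Cox6b2 was also called higher in both glia than in endothelial cells, where it had no UMI in the 3 small sums of the libraries numbered 2. At 13.1 CPM in astroglia and 7.0 in oligodendrocytes, against endothelial floors (3 UMIs) of 14.2 to 78.5 CPM, no fold is given.

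Complex V had 16 of 17 genes higher in oligodendrocytes than in endothelial cells and 15 of 17 lower in astroglia than in oligodendrocytes. Atp5a1 and Atp5b encode the alpha and beta subunits of the catalytic head. Atp5a1 had 291 ± 43.0 CPM in astroglia, 269 ± 20.7 in oligodendrocytes and 157 ± 47.7 in endothelial cells, and was higher in both glia than in endothelial cells (1.02, adjusted p 0.00111, and 1.29, adjusted p 2.58e-05) without passing between them. Atp5b had 354 ± 19.0, 372 ± 23.9 and 221 ± 50.8 CPM (0.94, adjusted p 0.00127, lost without control 2, and 1.37, adjusted p 3.22e-06). The proton-carrying c ring is made from 3 genes with the same mature product. Atp5g1 had 117 ± 22.9 CPM in astroglia and 246 ± 6.46 in oligodendrocytes (-1.49, adjusted p 2.83e-09) and Atp5g2 150 ± 27.5 and 320 ± 3.28 (-1.44), whereas Atp5g3 had 170 ± 5.81 and 155 ± 14.0 and did not pass. Atp5j was lower in astroglia than in endothelial cells (-0.74, adjusted p 0.00586, lost without control 2 or GlastiKO 2). Atp5mpl and Atp5k were higher in both glia (1.05 and 1.21 in astroglia, the first lost without GlastiKO 2, and 1.79 and 2.11 in oligodendrocytes). The endothelial sums of control 2, GlastiKO 2 and ECiKO 2 held only 9, 18 and 2 UMIs of Atp5mpl and 5, 27 and 0 of Atp5k. For Atp5k the astroglial and endothelial libraries overlap in CPM.

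Pericytes, the mural cells of capillaries, held the alternative forms of 2 subunits of complex IV. Their 3 sums with at least 20 cells (32, 30 and 32 cells of control 1, GlastiKO 1 and GlastiKO 2) were compared with endothelial cells of the same libraries. Ndufa4l2 had 1875, 1930 and 1860 CPM in pericytes and no UMI in endothelial cells, a level at least 1629, 1014 and 131 times the floor of 3 UMIs in the endothelial sum of the same library. Ndufa4, the usual form, had 25.9, 21.4 and 16.7 CPM in pericytes and 266, 269 and 430 in endothelial cells, a log2 fold change of -3.90 (SE 0.38, adjusted p 3.7e-23, n = 3). Cox4i2 had 1038, 1186 and 813 CPM in pericytes, and 1 UMI in 4394168 of the endothelial sums against 472 in 473606, a ratio of 4379 (exact 95% interval 782 to 173334, counting error only). The pericyte and endothelial libraries do not overlap for any of the 3 genes, and these calls held in all 12 alternatives.

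Ndufa4 is named as a complex I gene, but its product is a subunit of complex IV, and Ndufa4l2 and Cox4i2 are known as hypoxia-responsive forms. In mm10 (GENCODE M21) Ndufa4 lies at chr6:11900292-11907497 on the minus strand and Ndufa4l2 at chr10:127514967-127517154 on the plus strand, and both are protein-coding. Their coding sequences show how alike the 2 genes are, and the stretches that 3′ reads cover were not compared. They are given without the stop codon, 246 and 261 bases, with the longest run shared by both, 28 bases, in capitals.
Ndufa4: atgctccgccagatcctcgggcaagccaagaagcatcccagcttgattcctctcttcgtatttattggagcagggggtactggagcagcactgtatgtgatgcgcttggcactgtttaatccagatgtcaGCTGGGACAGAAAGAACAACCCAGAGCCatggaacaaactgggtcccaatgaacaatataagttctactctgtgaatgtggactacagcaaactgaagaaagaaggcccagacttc
Ndufa4l2: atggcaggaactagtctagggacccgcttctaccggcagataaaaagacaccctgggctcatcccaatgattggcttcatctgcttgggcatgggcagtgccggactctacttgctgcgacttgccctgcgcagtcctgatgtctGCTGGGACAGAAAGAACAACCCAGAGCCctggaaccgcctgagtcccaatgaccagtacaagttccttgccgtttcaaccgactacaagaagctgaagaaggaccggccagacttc
Over 268 aligned columns 65.3% of positions were identical. Cox4i1 (chr8:120668222-120674207, plus strand) and Cox4i2 (chr2:152754173-152765037, plus strand) were 66.1% identical, with no shared run above 14 bases.

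**Figure D3:**
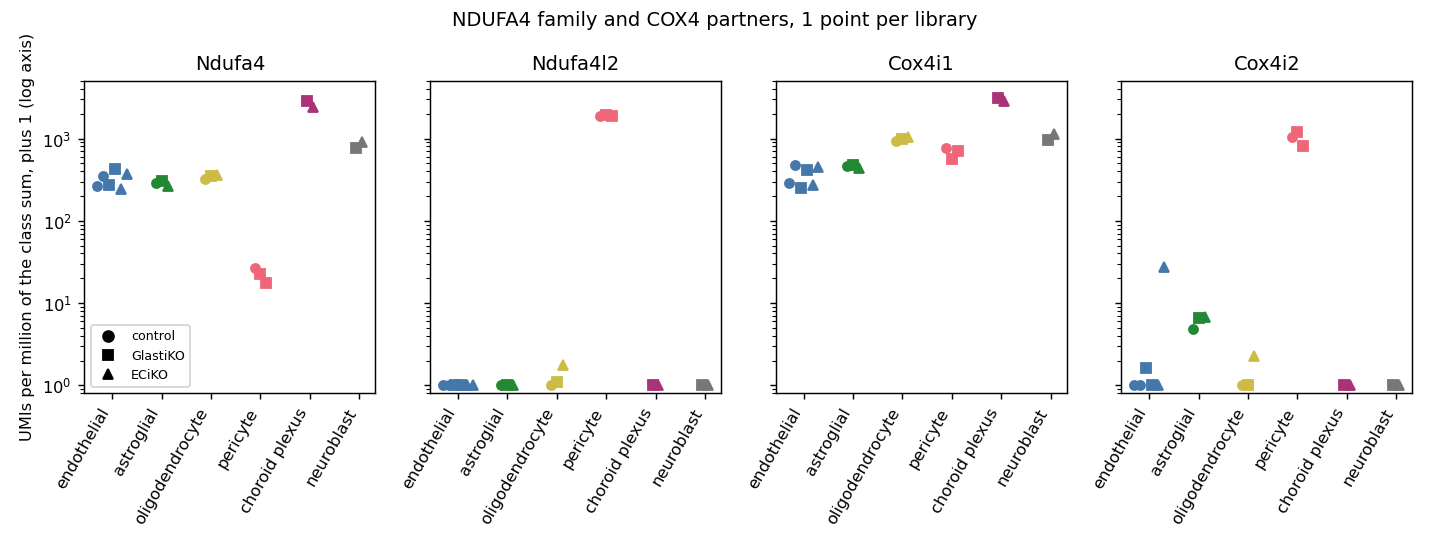
CPM plus 1 (y, log axis) of Ndufa4, Ndufa4l2, Cox4i1 and Cox4i2 by class (x), 1 point per library with the group as shape, so a point at 1 is 0 UMIs. Pericytes lie lowest for Ndufa4 (16.7 to 25.9 CPM) and alone reach high levels of Ndufa4l2 and Cox4i2, and the endothelial ECiKO point at 26.2 CPM of Cox4i2 is 1 UMI.

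The exchange differed in extent between the pairs. Ndufa4l2 made up 98.6% to 99.1% of the UMIs of its pair in pericytes, and Ndufa4 at least 99.8% in every library of the other classes. Cox4i2 made up 53.5% to 67.8% of its pair, since Cox4i1 was higher in pericytes too, at 772, 565 and 707 CPM against 290, 251 and 416 in endothelial cells (log2 fold change 1.16, adjusted p 3.11e-06). In single cells pooled over the 6 libraries, 122 of 124 pericytes had a UMI of Ndufa4l2 (98.4%, exact 95% interval 94.3% to 99.8%). The interval covers counting error only, and the share by library ran from 90.0% to 100%. Of the 124, 8 had a UMI of Ndufa4, 7 of them beside Ndufa4l2. Cox4i2 was seen in 113 of 124 and Cox4i1 in 112, and 107 had both. Median depths were 1053 to 3460.5 UMIs in the endothelial libraries and 4685 to 5454.5 in the pericyte sums of at least 20 cells. The 10 pericytes of ECiKO 2 had a median of 1575. Among endothelial cells, Ndufa4l2 was seen in 0 of 1714 and Cox4i2 in 2. For Ndufa4l2 this allows a share of up to 0.175% of cells with a UMI at these depths (not of cells expressing the gene). Ndufa4 was seen in 708 of the 1714 endothelial cells. In astroglia, 16 of 963 cells had a UMI of Cox4i2. Its level there was 3.81, 5.64 and 5.73 CPM in control 2, GlastiKO 2 and ECiKO 2 (7, 12 and 2 UMIs). Oligodendrocytes had 0, 0 and 1.29 CPM in the same libraries. Endothelial markers summed to 865 to 1946 CPM in pericytes against 32193 to 38109 in endothelial cells, and their part in the Ndufa4 UMIs of pericytes was not tested.

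Most other nuclear subunits were higher in pericytes as well. Of 80 tested, 66 were higher and 2 lower than in endothelial cells (26.6% and 30.9% of 4089 genes), with a median log2 fold change of 1.11 against -0.06 over all genes. Without overlap 66 lay above and 2 below (27.5% and 34.4% of all genes). Complex I had 28 of 35 higher, complex III 7 of 8, complex IV 10 of 14 with Ndufa4 lower, and complex V 16 of 17. Cox8a had 1174, 1294 and 991 CPM against 241, 194 and 283 (2.33, adjusted p 4.5e-20). Atp5b had 668, 736 and 724 CPM against 239, 219 and 279 (1.57, adjusted p 1.21e-10). Ndufb2 and Ndufa5 of complex I followed with log2 fold changes of 2.03 and 1.84, and Atp5mpl of complex V with 1.72. The other gene that fell was Ndufaf7, an assembly factor, with 33.6 ± 5.17 against 68.3 ± 7.52 CPM (-0.98, adjusted p 0.0244, lost with DESeq2 and without either GlastiKO library). Only 3 of 13 mitochondrial genes were called, all higher (mt-Cytb 0.77, mt-Nd4l 0.62, mt-Co3 0.55), with a median of 0.32. The number rested on single libraries: it was 0 without GlastiKO 1, 1 without control 1, and 8 without the limit on mitochondrial UMIs. The edgeR fit had 2 residual degrees of freedom, so these p-values rest on a spread pooled over genes.

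The genes with the pattern most like Ndufa4l2 over 19 sums of class and library, by Pearson's r of log2(CPM + 1) among 10881 genes, were Gm13861, Des, Casq2, Rem1 and Adap2 (r = 0.9996 to 0.9989). For Cox4i2 they included Ano1, Foxd1, Galnt17 and Kcnj8 (0.953 to 0.938), of which Kcnj8 is a marker used to define pericytes. For Ndufa4 they were Pdia4, Timm8a1, Cops4, Btbd1 and Tmsb15b2 (0.859 to 0.809). These are descriptions over sums that share libraries, and neither Ndufa4l2 nor Cox4i2 was used to define the class.

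Choroid plexus cells, the epithelium that secretes cerebrospinal fluid, held other alternative forms. Their sums (23 cells of GlastiKO 2 and 43 of ECiKO 2) were not tested. Cox8b, the striated muscle form of subunit 8, had 562 and 183 CPM there and at most 1.09 CPM in any other sum, which was 10.8% and 4.31% of the UMIs of Cox8a, Cox8b and Cox8c. Cox6b2, the testis form of subunit 6b, had 326 and 320 CPM and 19.1% to 21.7% of its pair, against 4.92% to 14.8% in pericytes, 1.54% to 9.07% in astroglia and at most 2.54% in the other classes. Cox7a1, the muscle form of subunit 7a, gave 5.455% to 5.63% of its family. That range overlaps with pericytes (2.70% to 5.495%, on 3 to 5 UMIs), and astroglia had 0.676% to 3.70%. Atp5g1 had 3167 and 2816 CPM and 61.9% to 63.4% of the c subunit UMIs, against 33.0% to 35.2% in oligodendrocytes. The genes most like Cox8b were Tjp3, 4933429O19Rik, Cldn2, 1700012B09Rik and Serpinb1b (r = 0.998 to 0.994).

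The promoters of the nuclear members were read for motifs of known regulators, and a link of these motifs to the class differences was not tested. Promoter windows of 250 bases before to 50 after the start were found in RefSeq (GRCm38.p6) for 76 of the 93 nuclear members. The palindromic motif GCGCANGCGC of NRF1, a regulator of respiratory genes, was in 18 of the 76 (23.7%) on either strand, against 1293 of 27025 promoters (4.78%). The ETS motif CCGGAAGT, bound by the GABP factor, was in 5 of the 76 (6.58%) against 4.0%. A match describes letters and not binding, and the promoters set beside the members were not matched for base composition. The members with the most NRF1 matches in the 250 bases before the start are printed, with matches of either motif in capitals: Sdha (chr13:74350241-74350490) and Ndufb4 (chr16:37654369-37654618) with 3 each, and Cox6a1 (chr5:115348959-115349208) with 2, all on the minus strand.
Sdha: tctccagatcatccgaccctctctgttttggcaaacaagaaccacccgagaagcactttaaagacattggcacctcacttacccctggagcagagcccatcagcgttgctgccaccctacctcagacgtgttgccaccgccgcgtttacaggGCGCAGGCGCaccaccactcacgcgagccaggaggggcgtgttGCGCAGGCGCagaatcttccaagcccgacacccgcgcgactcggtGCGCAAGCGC
Ndufb4: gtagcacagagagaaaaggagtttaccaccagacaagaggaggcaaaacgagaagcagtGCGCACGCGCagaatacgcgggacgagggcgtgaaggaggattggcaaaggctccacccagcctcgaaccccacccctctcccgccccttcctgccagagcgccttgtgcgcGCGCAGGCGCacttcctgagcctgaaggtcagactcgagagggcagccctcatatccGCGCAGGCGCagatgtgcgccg
Cox6a1: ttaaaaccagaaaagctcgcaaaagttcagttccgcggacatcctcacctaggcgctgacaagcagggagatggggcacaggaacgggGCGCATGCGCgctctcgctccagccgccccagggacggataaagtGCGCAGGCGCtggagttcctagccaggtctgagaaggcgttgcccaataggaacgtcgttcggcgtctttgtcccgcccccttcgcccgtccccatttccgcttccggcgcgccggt
Within the mitochondrial arm, the 13 genes did not keep fixed proportions. All are cut from long transcripts of the circular genome, and most messages receive a poly(A) tail, which the 3′ kit captures. mt-Co3, mt-Atp6, mt-Co1, mt-Co2 and mt-Cytb each gave at least 9.64% of the arm in every sum, and mt-Nd6, which lies on the other strand, at most 0.686%. mt-Nd2 gave 4.65% to 4.71% of the arm in oligodendrocytes and 3.996% to 4.97% in neuroblasts, against 7.76% to 8.15% in astroglia, 7.05% to 8.77% in endothelial cells and 5.87% to 6.89% in pericytes. The oligodendrocyte libraries lie below every astroglial, endothelial and pericyte library.

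mt-Co1, the catalytic subunit of complex IV, gave 16.3% to 17.8% in oligodendrocytes and 12.9% to 13.6% in astroglia. mt-Cytb, the only mitochondrial subunit of complex III, gave 14.2% to 14.8% in pericytes and at most 12.8% in the other classes. mt-Nd5 gave 3.10% to 3.43% in choroid plexus cells and at most 1.81% elsewhere. Between the glia, the 6 mitochondrial genes called higher in astroglia were mt-Nd6 (log2 fold change 1.46, adjusted p 4.57e-11), mt-Nd2 (1.15, adjusted p 1.97e-05), mt-Nd5 (1.12, adjusted p 1.25e-06), mt-Nd4l (0.73), mt-Nd4 (0.66) and mt-Cytb (0.54). Thus 5 of the 7 complex I genes and the complex III gene passed, and none of the 3 of complex IV or the 2 of complex V. This split by complex depended on the scaling: with DESeq2 and with library totals 12 of 13 passed. In CPM 12 of 13 lay above oligodendrocytes without overlap (44.3% of all genes), among them the 3 of complex IV and the 2 of complex V.

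**Figure D4:**
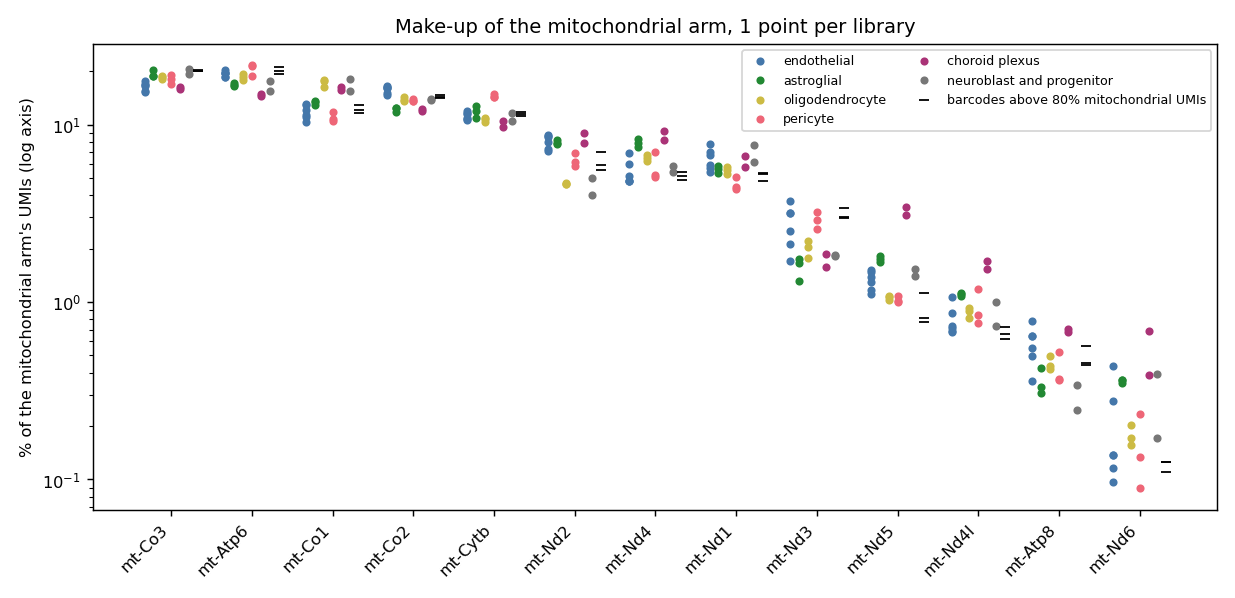
Share of the mitochondrial arm's UMIs (y, %, log axis) given by each of its 13 genes (x), 1 point per class and library, with black bars for the barcodes above 80% mitochondrial UMIs in the libraries numbered 1. mt-Nd2 is lower in oligodendrocytes (4.65% to 4.71%) than in astroglia (7.76% to 8.15%), and mt-Nd5 is highest in choroid plexus cells (3.10% to 3.43%).

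The arm holds 2 pairs of overlapping genes that share a message. Both junctions are printed from the mm10 annotation, plus strand, with the bases that belong to both genes in capitals. mt-Atp8 and mt-Atp6 share chrM:7927-7969 (43 bases, shown from 7907 to 7989), and mt-Nd4l and mt-Nd4 share chrM:10167-10173 (7 bases, shown from 10147 to 10193).
mt-Atp8/mt-Atp6: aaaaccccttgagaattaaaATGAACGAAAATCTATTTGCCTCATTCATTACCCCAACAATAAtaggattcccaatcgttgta
mt-Nd4l/mt-Nd4: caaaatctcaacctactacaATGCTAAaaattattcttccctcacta
mt-Atp6 had 21.0 to 72.2 UMIs per UMI of mt-Atp8 (median 42.4), and mt-Nd4 5.29 to 8.72 per UMI of mt-Nd4l (median 6.80). How reads in the overlaps were assigned was not tested.

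The genotype groups were compared in endothelial cells, where each group has 2 libraries, with all 6 in 1 edgeR fit. None of 82 tested nuclear members and none of 13 mitochondrial genes was called for GlastiKO against control (0.092% of 8693 genes were called higher and 0.207% lower) or for ECiKO against control (0.023% and 0.196%). DESeq2 called none either. At an unadjusted p under 0.05 there were 0 in either arm for GlastiKO, and 1 in each arm for ECiKO, Ndufa8 (-0.71) and mt-Atp8 (0.65). The mitochondrial median was 0.11 and 0.04, and it ran from -0.24 without GlastiKO 1 to 0.42 without GlastiKO 2, and from -0.29 without ECiKO 1 to 0.34 without ECiKO 2. The median standard error of a nuclear member's log2 fold change was 0.30 for GlastiKO and 0.33 for ECiKO, so small differences could not be seen. Both comparisons share the control libraries.

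The direction of the nuclear members is given as values. For GlastiKO their median log2 fold change was 0.07 (all genes 0.00), and groups that do not overlap were seen for 3 members above control (11.5% of all genes) and 4 below (17.4%). For ECiKO the median was -0.20 (all genes -0.03) with 64 of 82 below 0, and 24 members lay below control without overlap (18.6% of all genes) and 4 above (11.7%). ECiKO 2 rests on 21 cells and 38226 UMIs. Without it the ECiKO comparison has 1 library.

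In each genotype the arms differed between the libraries numbered 1 and 2. The nuclear arm was 1.03% and 1.21% in control 1 and 2, 0.960% and 1.37% in GlastiKO, and 0.924% and 1.04% in ECiKO. The mitochondrial arm was 3.46% and 3.03%, 3.98% and 2.57%, and 3.86% and 3.0%. Thus library 2 was above library 1 for the nuclear arm and below it for the mitochondrial arm in all 3 groups, and GlastiKO was below control for the nuclear arm in the libraries numbered 1 and above it in those numbered 2. Summed oligodendrocyte markers in these endothelial cells moved with the number, at 402, 551 and 458 CPM in the libraries numbered 1 and 945, 926 and 1308 in those numbered 2, and their part in the result was not tested.

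**Figure D5:**
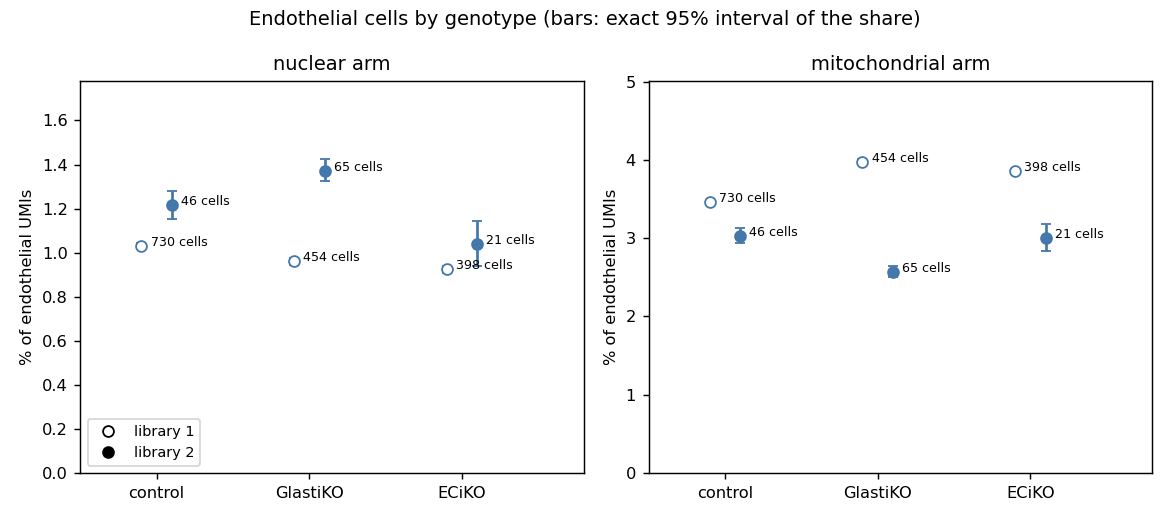
Nuclear and mitochondrial arm as % of endothelial UMIs (y) by genotype (x), open for library 1 and filled for library 2, with exact 95% intervals for counting error and the number of cells. Library 2 lies above library 1 in the nuclear arm and below it in the mitochondrial arm in all 3 groups.

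Glia could be compared between genotypes in 1 library each, without a test. In astroglia the nuclear arm was 1.20% in control, 1.26% in GlastiKO and 1.28% in ECiKO, and the mitochondrial arm 7.14%, 7.46% and 7.59%, with ratios of 1.05 to 1.06 to control. Of the nuclear members with at least 100 UMIs in both libraries together, 3 of 80 were past 1.5-fold in GlastiKO (8.91% of all genes), all above control (Atp5k 1.51, Ndufaf7 1.56, Atp5md 1.5). In ECiKO 4 of 78 were past it (12.6% of all genes), Ndufa10 (1.51), Ndufa5 (1.61) and Ndufa9 (1.71) above and Ndufs8 (0.510) below.

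In oligodendrocytes the nuclear arm was 1.77% in control, 1.99% in GlastiKO (ratio 1.12, exact 95% interval 1.11 to 1.13) and 1.86% in ECiKO (1.05, interval 1.04 to 1.06). Complexes III and IV both had ratios of 1.15 in GlastiKO (intervals 1.12 to 1.17 and 1.14 to 1.17). The mitochondrial arm was 4.13%, 3.93% and 5.23%, so ECiKO stood at 1.27 times control (interval 1.26 to 1.27), with a median ratio of 1.30 over the 13 genes and a range of 1.16 to 1.496. Depth moved with this, since oligodendrocytes had a median of 15802 UMIs in control 2, 17574 in GlastiKO 2 and 774 in ECiKO 2. Among cells with at least 2000 UMIs the ratio was 1.20, with at most 10% mitochondrial UMIs 1.08, and without a limit 1.23. The nuclear ratio in ECiKO turned to 0.978 among cells with at least 2000 UMIs. Past 1.5-fold were 1 of 85 nuclear members in GlastiKO (Cox6b2, 1.56, 2.29% of all genes) and 0 of 84 in ECiKO (2.92%), and no mitochondrial gene in either. All these intervals cover counting error only.

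Genes around the chain were taken from 5 lists. Their counts stand beside the shares of all genes called higher and lower, which were 23.3% and 15.5% in astroglia and 29.2% and 15.7% in oligodendrocytes against endothelial cells, 34.5% and 36.3% in astroglia against oligodendrocytes, and 26.6% and 30.9% in pericytes. The medians over all genes were 0.30, 0.51, -0.03 and -0.06 in the same order. The tricarboxylic acid cycle, which supplies NADH and succinate, had 7 of 16 genes higher and none lower in astroglia than in endothelial cells, with a median log2 fold change of 1.04, among them Cs (citrate synthase, 2.28). In oligodendrocytes 5 were higher and Suclg2 lower, and astroglia against oligodendrocytes gave 7 higher (Cs 1.43) and 2 lower (Ogdh and Mdh2). In pericytes 7 of 13 were higher, Fh1 with 1.76. Electron carriers and entry points outside the complexes gave 2 higher and 1 lower of 15 in astroglia, 3 and 1 in oligodendrocytes, and 2 and 1 of 4 in pericytes, where Cycs, the gene of cytochrome c, was higher (1.59) and Gpd2, the mitochondrial glycerophosphate dehydrogenase, lower. Between the glia 7 of these 15 were higher in astroglia and 3 lower.

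Assembly factors of complexes II to V, with those of complex I that lack the Nduf prefix, gave 4 higher and 2 lower of 37 in astroglia against endothelial cells, 6 and 0 in oligodendrocytes and 3 and 0 of 9 in pericytes, and 7 higher and 11 lower in astroglia against oligodendrocytes. Cox17, a copper chaperone for complex IV, was higher in oligodendrocytes (1.81) and pericytes (0.87) than in endothelial cells. Genes for upkeep and expression of mitochondrial DNA gave 3 higher and 0 lower of 24 in astroglia and 5 and 2 in oligodendrocytes against endothelial cells, 1 and 0 of 3 in pericytes, and 8 and 6 in astroglia against oligodendrocytes. Tfam, which packages mitochondrial DNA, was higher in oligodendrocytes than in endothelial cells (1.47) and lower in astroglia than in oligodendrocytes (-0.94). Nuclear regulators gave 3 higher and 3 lower of 9 in astroglia against endothelial cells, none in oligodendrocytes or pericytes, and 5 higher and 1 lower in astroglia against oligodendrocytes, among them Ppargc1a, a coactivator of mitochondrial genes, in both comparisons and Nrf1 (1.75) against oligodendrocytes. None of the 5 lists had a called gene in either genotype comparison of endothelial cells.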

How the data were processed

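The authors deposited filtered matrices of UMI counts per gene and barcode, 1 for each of 6 libraries made with a 10x 3′ kit (version 3.1), per the labels' protocols. Those protocols name Cell Ranger 5.0.0 and mm10, and the submitters' processing notes name Cell Ranger 2.1.1 and Seurat 4. UMIs count molecules and were not scaled by length. Kept barcodes had at least 300 genes and at most 20% mitochondrial UMIs. A class needed 60% of a barcode's UMIs over 13 marker lists (94 markers), 3 of its markers and 5 UMIs, so mixed barcodes were left out, and no doublet caller was run.

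Class names rest on RNA markers alone. Counts were summed per library and class (at least 20 cells) and tested in R 4.3.3 with edgeR 4.0.16 (TMM, quasi-likelihood, Benjamini-Hochberg over all genes passing filterByExpr, threshold 0.05), with DESeq2 1.42.0 and other settings as alternatives. Class comparisons had library as a block and 4 or 2 residual degrees of freedom, and endothelial groups 3. P-values measure the spread between libraries, pooled over genes. The fit of astroglia, oligodendrocytes and endothelial cells used control 2, GlastiKO 2 and ECiKO 2. That of pericytes used control 1, GlastiKO 1 and GlastiKO 2. In these class comparisons the spread between libraries, and the SDs, therefore mix genotype with replicate. The test was also run on simulated counts with a small set of changed genes, as many up as down, and 1 fixed spread. Class comparisons differ from that setting, so the simulation does not check their scaling. Exact 95% intervals cover counting error only.

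The members, lists and tests were chosen with earlier results of these data known. Named genes are the 13 mitochondrial genes, the isoform families, the core subunits, and up to 5 members per direction with an adjusted p under 0.05, at least 20 CPM and no overlap, by size of change. Some genes that this rule or a list names are not reported here. Values came from Python 3.11.15.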

Additional observations from a re-analysis of the deposited data

Results flagged for a closer look

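In glia each genotype has 1 library, so the following ratios to control rest on pairs of libraries, and the difference between the classes was not tested. These members are listed because the ratio lay on opposite sides of 1 in astroglia and oligodendrocytes, with an exact 95% counting interval that excluded 1 in each class.

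For GlastiKO the mitochondrial arm was at 1.05 times control in astroglia and 0.952 in oligodendrocytes. Among its genes mt-Co1 was at 1.09 and 0.947, mt-Co2 at 1.09 and 0.946, mt-Nd1 at 1.09 and 0.980, mt-Atp6 at 1.04 and 0.915, and mt-Co3 at 1.03 and 0.973.

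For ECiKO, Atp5a1, the alpha subunit of the ATP synthase, was at 1.27 times control in astroglia and 0.859 in oligodendrocytes. mt-Cytb was at 0.908 in astroglia and 1.20 in oligodendrocytes. ECiKO 2 is the shallow library, with a median of 782 UMIs per barcode.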

How the results depend on the processing

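The cause of each shift below was not tested. Library totals without TMM factors and cells with at least 2000 UMIs were chosen as alternatives after seeing the data.

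With library totals, astroglia against endothelial cells gave 12 nuclear members higher and 10 lower, with medians of 0.044 (nuclear) and 1.44 (mitochondrial). Oligodendrocytes against endothelial cells gave 38 higher and 2 lower, with medians of 0.55 and 0.53 and 8 mitochondrial genes higher. Ndufa4 turned to -0.19 and mt-Nd2 to -0.12. Between the glia 8 nuclear and 12 mitochondrial members were higher, with medians of -0.57 and 0.82, and Ndufs1 turned to 0.34 and Uqcrc1 to 0.36.

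With DESeq2 the mitochondrial median in oligodendrocytes was 1.03. Between the glia the medians were -0.65 and 0.74 with 12 mitochondrial genes higher, and 1 nuclear member was lower in pericytes. Without a filter on low counts the mitochondrial medians were 1.94 in astroglia, 1.51 in oligodendrocytes and 0.22 in pericytes (1 gene higher), and the nuclear ones 1.48 in oligodendrocytes and -1.04 between the glia.

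Without the limit on mitochondrial UMIs the mitochondrial medians were 2.096 in astroglia, 0.63 between the glia and 0.66 in pericytes (8 higher), and the arm was 8.5% in astroglia and 5.42% in pericytes. At 10% they were 1.47, 1.07 (oligodendrocytes), 0.23, 0.40 and, for ECiKO in endothelial cells, 0.28. The astroglial arms were then 5.49% and 1.40% (nuclear), and the nuclear median between the glia -0.69. With at least 2000 UMIs the mitochondrial medians were 1.96 in astroglia, 0.46 in pericytes (5 higher) and 0.29 for ECiKO, and the nuclear one between the glia -0.85. The stricter gate gave 0.25 in pericytes.

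For glia by genotype, without the limit the mitochondrial ratio was 1.18 in astroglia of ECiKO, 0.903 in oligodendrocytes of GlastiKO (nuclear 1.13) and 1.23 in those of ECiKO. At 10% it was 1.00 and, in oligodendrocytes of ECiKO, 1.08 (nuclear 1.03), with a nuclear ratio of 1.09 in astroglia of GlastiKO. With at least 2000 UMIs it was 1.07 in astroglia of GlastiKO and 1.20 in oligodendrocytes of ECiKO, and the nuclear ratios in ECiKO were 1.01 in astroglia and 0.978 in oligodendrocytes, the last below 1.

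Leaving out each library in turn gave 11 to 21 nuclear members higher and 1 to 5 lower in astroglia against endothelial cells. Between the glia it gave 3 to 4 higher and a median of -0.92 to -0.81. Mitochondrial medians ran from 1.06 to 1.37 in oligodendrocytes, 0.30 to 0.39 in pericytes (0 to 2 genes higher, and 1 to 2 nuclear members lower), -0.24 to 0.42 for GlastiKO and -0.29 to 0.34 for ECiKO. A sum that stood alone was assumed to vary like the others.

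Replicate numbers were not taken to pair the endothelial libraries. Deviations of same-numbered libraries correlated at 0.087, 0.041 and 0.057 over 8693 genes, none over 0.1. Such a correlation cannot exclude a shared effect of the number, since small sums (38226 UMIs in ECiKO 2) hold much counting error. Both arms and the oligodendrocyte markers in endothelial cells did move with the number in all 3 groups. With the replicate block, 40 and 30 genes were called for GlastiKO and ECiKO against 26 and 19 without, and 0 members in each, with nuclear medians of 0.04 and -0.15. Over all settings 455 values of arms, counts and medians kept their size and direction, 70 moved and 1 reversed. Among named members 2746 values kept theirs, 127 lost a call, 46 gained one and 4 reversed.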

Other observations

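Barcodes with over 80% mitochondrial UMIs were left out of every comparison. There were 171, 124 and 105 of them in control 1, GlastiKO 1 and ECiKO 1 (15.8%, 17.5% and 18.4% of barcodes) and 2, 0 and 0 in the libraries numbered 2. In the libraries numbered 1 they had medians of 60, 107 and 80 genes and 1378, 1525.5 and 1206 UMIs. Nuclear members made up 2.76%, 2.38% and 2.53% of their UMIs outside the mitochondrial genes.

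Nuclear share, here of the UMIs outside the mitochondrial arm and not of all UMIs, was set beside depth in single cells. Spearman's rho of nuclear share and UMIs per cell was 0.52 to 0.67 in endothelial cells of 5 libraries and -0.16 in ECiKO 2, and 0.58 and 0.60 in astroglia of control 2 and GlastiKO 2 and -0.26 in ECiKO 2. It was -0.22 to -0.01 in oligodendrocytes and -0.37 to -0.04 in pericytes. In GlastiKO 2 and ECiKO 2 it was 0.43 and 0.001 in choroid plexus cells and 0.45 and -0.02 in neuroblasts and progenitors. These are descriptions over cells of 1 library each, and UMIs per cell enter both quantities.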
